A study of Mus musculus with 6 samples.

Results

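The S100 proteins and stefins examined here are 10 genes, S100a8, S100a9, S100a4, S100a6, S100a10, S100a11, Stfa1, Stfa2, Stfa2l1 and Stfa3, taken by name from the 53458 genes of the tables. They were measured by RNA sequencing in leukemic blasts from C57/BL6 mice transplanted with acute myeloid leukemia. The 3 G643W libraries come from blasts of the genotype Cebpa-/p30; Asxl1G643W/G643W, in which both alleles of Asxl1, a chromatin regulator, carry the G643W change. The 3 WT libraries come from Cebpa-/p30; Asxl1WT blasts. Both groups thus lack full-length C/EBPα, a transcription factor of granulocyte development, and keep only its short p30 form. Blasts were sorted from bone marrow by CD45.2 and low Mac1 and Gr1, without Ter119, B220 or CD3, so the gate leaves out cells with high levels of these markers, as ripe neutrophils have. The sources used here give neither the age of the mice nor whether libraries of 1 genotype came from separate primary leukemias, so p-values speak only of the spread among the libraries at hand, which may be technical.

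S100 proteins are small calcium-binding proteins that act mostly as dimers. S100A8 and S100A9 form calprotectin, an abundant protein of the neutrophil cytosol that binds zinc and can signal through Toll-like receptor 4, while S100A4, S100A6, S100A10 and S100A11 are more widely expressed partners of annexins, myosin and other cytoskeletal proteins. Stefins are cystatins that stay inside the cell and block cysteine cathepsins. In the mouse the stefin A genes have multiplied into a cluster that is active in neutrophils and their precursors.

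No member passed the test, which was edgeR's quasi-likelihood test with Benjamini-Hochberg adjustment over all 20654 genes tested. All 10 members passed the filter on low counts, 0 were called at an adjusted p under 0.05 (the range was 0.434 to 0.994), and 0.121% of all genes tested were called (0.0533% higher and 0.0678% lower in G643W). An unadjusted p under 0.05 was reached by 6 of the 10, where 9.66% of all genes tested reached it. DESeq2, run as an alternative, called 4 of the 10, with Stfa1, Stfa2 and Stfa2l1 higher and S100a4 lower in G643W blasts, where 2.21% of the genes it tested were called (0.849% higher and 1.36% lower). Log2 fold changes of G643W over WT were positive for 8 members and negative for 2, with a median of 1.83, against -0.01 over all genes tested, of which 49.2% were positive. The 10 are not independent of each other, since the stefins moved together over the libraries (Pearson r of log2 CPM from 0.957 to 0.996). They were also chosen with earlier results of these data known. S100a4 alone among the 10 had no overlap between the groups, with its 3 G643W values below its 3 WT values, as 8.89% of all genes tested had by CPM (15.9% in either direction).

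**Figure D1:**
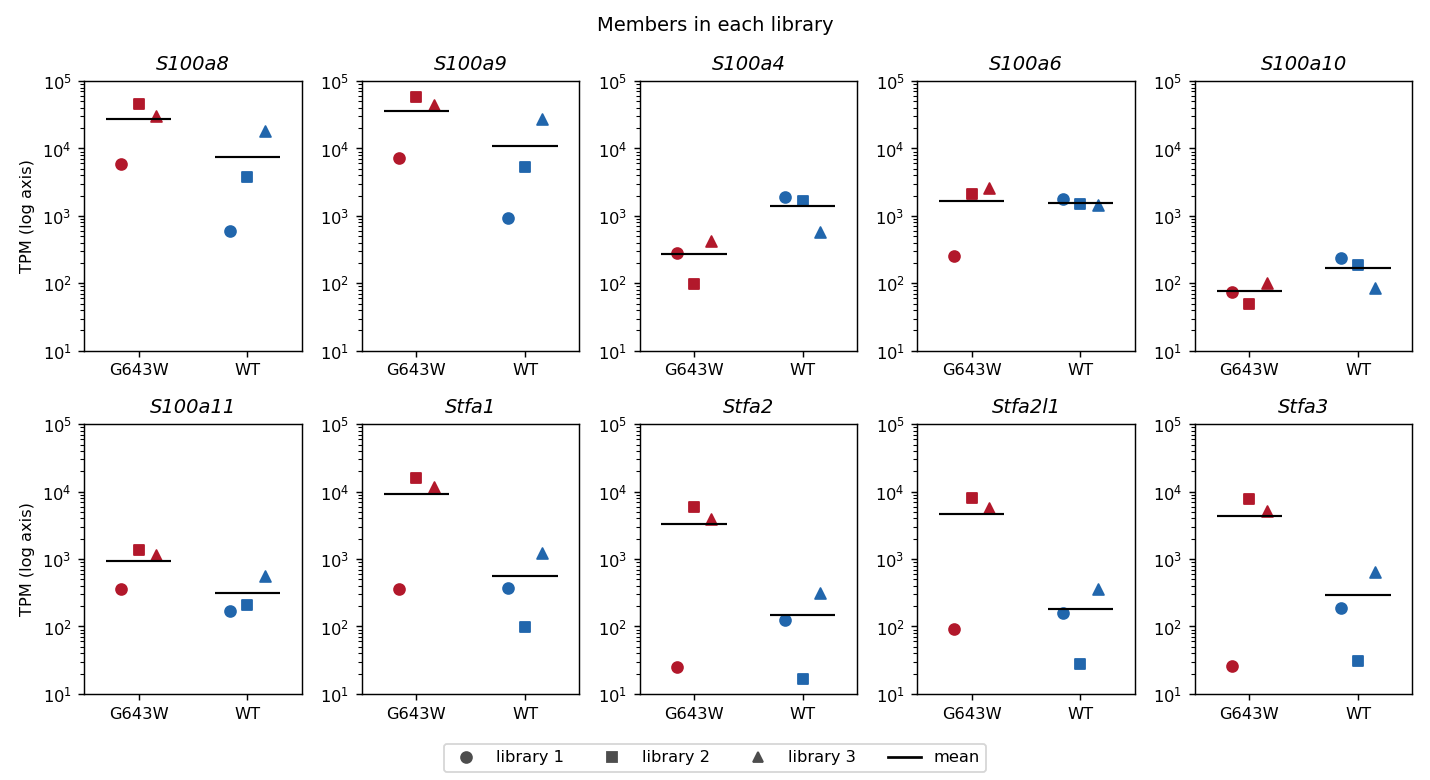
Level of each member in TPM, on a log axis, in the 3 G643W libraries (left of each panel) and the 3 WT libraries (right). Markers stand for libraries and horizontal lines for group means, and S100a4 is the panel in which the 3 G643W markers all lie below the 3 WT markers.

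Totals ranged from 61167075 to 101189225 estimated reads per library, and no pair of libraries of 1 genotype agreed within sampling noise. The 10 members together took 0.869, 7.93 and 5.67% of all reads in G643W libraries 1 to 3, against 0.303, 0.755 and 2.91% in WT libraries 1 to 3. Cebpa was at 59.0, 5.93 and 11.5 TPM in the G643W libraries, against 44.7, 64.5 and 26.9 TPM in the WT libraries. Asxl1 was at 13.7, 20.2 and 15.5 TPM in G643W, against 6.95, 3.68 and 7.15 TPM in WT, and since gene totals cannot show the base change, the labels could not be checked against it. In such bulk samples fewer cells of a type and less RNA per cell cannot be told apart.

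S100a8 and S100a9 encode the subunits of calprotectin and lie close together on chromosome 3 (GRCm38, S100a8 at chr3:90668978-90670035 on the plus strand, S100a9 at chr3:90692632-90695721 on the minus strand). S100a8 was at 5858, 46115 and 30414 TPM in G643W libraries 1 to 3, against 606, 3734 and 18144 TPM in WT libraries 1 to 3. S100a9 was at 7290, 57622 and 44084 TPM in the G643W libraries, against 936, 5352 and 26887 TPM in the WT libraries. For both genes the groups overlapped, because G643W library 1 lay below WT library 3. Among protein-coding genes ordered by TPM, S100a9 held rank 5, 1 and 1 in the G643W libraries, against rank 99, 6 and 1 in the WT libraries.

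The means of S100a8 were 27462 ± 20290.5 TPM in G643W and 7495 ± 9354 TPM in WT (SD, n = 3 each), and those of S100a9 were 36332 ± 26046 TPM in G643W and 11058 ± 13885 TPM in WT. In the count model the log2 fold change was 1.87 ± 1.22 for S100a8 (SE, edgeR adjusted p = 0.590, 95% interval -1.01 to 4.75) and 1.78 ± 1.25 for S100a9 (edgeR adjusted p = 0.606, 95% interval -1.16 to 4.72). Differences of that size were smaller than the range within either genotype, in which the highest library exceeded the lowest by 7.87 times in G643W and by 29.9 times in WT for S100a8. Without WT library 3 the S100a8 value was 3.67 and that of S100a9 was 3.65 on the log2 scale, and without G643W library 2 both were 1.18, none of them called (edgeR adjusted p of 0.308 and 0.310 without WT library 3 and of 0.960 each without G643W library 2).

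The level of the pair varied widely, and the balance between them far less. The ratio of S100a9 to S100a8 TPM was 1.24, 1.25 and 1.45 in G643W libraries 1 to 3, against 1.54, 1.43 and 1.48 in WT libraries 1 to 3. The main S100a9 transcript took from 82.5 to 84.5% of the gene's reads over the 6 libraries, and a transcript of S100a8 with a retained intron took from 0.941 to 1.82%. No other gene's transcript matched theirs at 80% identity or more over 50% or more of the length, and every 31-base word of their transcripts was their own.

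The sequences upstream of both genes are shown because the genes move together over the libraries and because C/EBP factors, 1 of which is altered in both genotypes, are known to act on granulocyte genes. The 250 bases before each RefSeq start were read from RefSeq's table of promoters (GRCm38.p6), written 5′ to 3′ along the gene. They are chr3:90668821-90669070 on the plus strand for S100a8 and chr3:90695722-90695971 on the minus strand for S100a9. The RefSeq start of S100a8 lies inside its gene span, which begins at chr3:90668978, so the last part of its bases falls within that span. Capitals mark a match to TTGCNNAA, a form of the C/EBP site, read on both strands (TTNNGCAA on the other).
S100a8: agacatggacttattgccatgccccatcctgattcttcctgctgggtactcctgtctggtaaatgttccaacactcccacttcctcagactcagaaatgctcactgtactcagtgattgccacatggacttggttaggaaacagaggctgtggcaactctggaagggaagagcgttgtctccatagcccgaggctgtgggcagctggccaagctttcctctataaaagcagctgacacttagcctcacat
S100a9: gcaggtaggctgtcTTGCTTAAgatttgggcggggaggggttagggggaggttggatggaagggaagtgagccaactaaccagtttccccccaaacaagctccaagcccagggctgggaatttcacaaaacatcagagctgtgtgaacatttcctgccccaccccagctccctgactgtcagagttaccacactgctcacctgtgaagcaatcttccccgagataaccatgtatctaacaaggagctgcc
In windows of 250 bases before to 50 after the RefSeq start, 2 of the 9 members with an entry held a match. These were S100a9 at 236 and Stfa1 at 109 bases before that start. The Stfa1 match lies inside the gene's annotated span (chr16:36276951-36285373), which begins before the RefSeq start. Over all 32841 windows of that length 10.8% held a match. A match is a description of the letters, not of binding.

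Receptors and partners of S100 proteins did not show a common direction. None of the 18 genes of that list was called, 8 had a positive and 10 a negative log2 fold change, and the median was -0.10, against -0.01 over all genes tested. Tlr4, the receptor of calprotectin, was at 4.38, 8.05 and 10.7 TPM in the G643W libraries, against 9.02, 3.76 and 4.32 TPM in the WT libraries, with overlap. Anxa1, the annexin bound by S100A11, was at 1080, 9214 and 6469 TPM in G643W, against 417, 919 and 3813 TPM in WT, also with overlap. Ahnak, a giant scaffold protein bound by the S100A10 and annexin A2 complex, had the lowest p of the list. It was at 5.68, 1.58 and 6.12 TPM in G643W, against 20.6, 14.9 and 9.84 TPM in WT, with no overlap (log2 fold change -1.79 ± 0.52, SE, edgeR adjusted p = 0.457).

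S100a4 encodes a protein that binds non-muscle myosin and promotes cell movement, and it was the member with the lowest p. It lies at chr3:90603771-90606045 on the plus strand. S100a4 was at 283, 96.3 and 428 TPM in G643W libraries 1 to 3, against 1930 (WT library 1), 1684 (WT library 2) and 576 TPM (WT library 3). All 3 G643W values lay below all 3 WT values, and the nearest pair was G643W library 3 and WT library 3.

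The means of S100a4 were 269 ± 166 TPM in G643W and 1397 ± 722 TPM in WT (SD, n = 3 each). Its log2 fold change was -2.45 ± 0.64 (SE, edgeR unadjusted p = 0.00621, edgeR adjusted p = 0.434, 95% interval -3.96 to -0.95), which is a WT level 5.47 times that of G643W. DESeq2 gave -2.44 ± 0.65 (SE, DESeq2 adjusted p = 0.0143), below its threshold. With 1 library left out at a time, the S100a4 log2 fold change lay between -2.98 and -2.07, not called by edgeR in any. The longer of its transcripts took from 69.9 to 74.6% of the gene's reads over the 6 libraries. Of the 31-base words of S100a4, 50.8% were in no other gene, since the annotation also holds Gm42674, whose transcript contains 60.6% of that of S100a4 without a difference. Gm42674 was given 3.96 reads over all 6 libraries together.

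S100a10 encodes p11, a member of the family that no longer binds calcium and forms a complex with annexin A2 at membranes. It lies at chr3:93555080-93564643 and had the other negative difference. S100a10 was at 75.5, 49.4 and 103 TPM in the G643W libraries, against 236, 186 and 84.2 TPM in the WT libraries. The groups overlapped only in that G643W library 3 lay above WT library 3. The means were 75.8 ± 26.6 TPM in G643W and 169 ± 77.3 TPM in WT (SD, n = 3 each), with a log2 fold change of -1.25 ± 0.42 (SE, edgeR adjusted p = 0.493, 95% interval -2.25 to -0.26). Anxa2, its partner, was at 90.2, 325 and 362 TPM in G643W, against 219, 159 and 217 TPM in WT, so the pair did not share an order of libraries.

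S100a6 encodes calcyclin, which binds annexins and the calcyclin-binding protein, and lies at chr3:90612882-90624181, close to S100a4. Its levels were even in WT and not in G643W. S100a6 was at 257, 2135 and 2629 TPM in the G643W libraries, against 1751, 1519 and 1436 TPM in the WT libraries. In G643W the highest library was 10.2 times the lowest, and in WT 1.22 times. G643W library 1 lay below all WT libraries, and G643W libraries 2 and 3 lay above them. A short S100a6 transcript with a retained intron took from 34.5 to 37.4% of the gene's reads over the libraries. By TPM it was the highest of the gene's transcripts in every library. It was at 146, 1249 and 1558 TPM in the G643W libraries, against 992, 888 and 852 TPM in the WT libraries.

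The S100a6 log2 fold change was 0.02 ± 0.72 (SE, edgeR adjusted p = 0.994, 95% interval -1.69 to 1.72), and its direction depended on the scaling and on single libraries. It was -0.11 without a scaling factor and 0.61 without G643W library 1 (edgeR adjusted p = 0.206 without that library). The ratio of S100a6 to S100a4 TPM was 0.908, 22.2 and 6.14 in G643W libraries 1 to 3, against 0.907, 0.902 and 2.49 in WT libraries 1 to 3. By these gene totals, which include the S100a6 transcript with a retained intron, S100a6 and S100a4 stood near the same level in G643W library 1 and WT libraries 1 and 2. They stood apart in the other 3 libraries.

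S100a11 encodes calgizzarin, a partner of annexin A1, and lies at chr3:93520488-93526287 beside S100a10. Its difference had the opposite sign to that of its neighbour. S100a11 was at 356, 1346 and 1144 TPM in the G643W libraries, against 173, 207 and 560 TPM in the WT libraries. The groups overlapped in that G643W library 1 lay below WT library 3. The means were 948 ± 523 TPM in G643W and 313 ± 215 TPM in WT (SD, n = 3 each), and the log2 fold change was 1.59 ± 0.64 (SE, edgeR adjusted p = 0.511, 95% interval 0.07 to 3.11).

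The count of S100a11 is split with a copy. The processed pseudogene Gm12854 on chromosome 4 is 98.99% identical to S100a11 over 58.1% of its transcript, and 51.1% of the 31-base words of S100a11 are in no other gene. Gm12854 was given 34.7, 35.1 and 36.2% of the reads of the pair in G643W libraries 1 to 3, against 34.1, 37.3 and 33.2% in WT libraries 1 to 3. That share of reads was nearly the same in every library while the total moved. By TPM, which also takes transcript length into account, Gm12854 stood above S100a11 in every library. It was at 1009, 3927 and 3420 TPM in the G643W libraries, against 474, 641 and 1456 TPM in the WT libraries. Summed with its copies of at least 95% identity, a sum chosen after the values were seen, S100a11 had a log2 fold change of 1.61 ± 0.64 (SE, edgeR adjusted p = 0.505), close to the value of the gene alone.

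Of the other S100 genes only S100a1 and S100a13 were above 3 TPM in any library. Of the 11 listed, 10 are in the annotation, 4 passed the filter and none was called, with a median log2 fold change of 0.60 over those 4. S100a7a had the lowest p, at 0.0814, 0.767 and 2.07 TPM in G643W, against 0.0113, 0 and 0.247 TPM in WT (edgeR adjusted p = 0.567).

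The stefin members lie in a cluster on chromosome 16, with Stfa2l1 at chr16:36156811-36161953 and Stfa1 at chr16:36276951-36285373 on the plus strand, and Stfa2 at chr16:36403992-36408457 and Stfa3 at chr16:36450537-36455392 on the minus strand. Transcripts that matched a member at 80% identity or more over 50% or more of its length came from 8 further genes of the cluster, which made a family of 12, of which 10 are annotated as protein-coding and 2 as pseudogenes. A stretch of 60 coding bases is shown because it shows which copies a read could tell apart. It runs from coding base 1 in Stfa1 (chr16:36277196-36277255, plus strand) and in BC100530 (chr16:36367442-36367501, minus strand), which RefSeq names Cstdc5, and from coding base 19 in Stfa2 (chr16:36408256-36408315, minus strand), Stfa2l1 (chr16:36156855-36156914, plus strand) and Stfa3 (chr16:36455287-36455346, minus strand). Capitals mark the 18 positions at which the 5 transcripts of GENCODE M21 are not all alike.
Stfa1: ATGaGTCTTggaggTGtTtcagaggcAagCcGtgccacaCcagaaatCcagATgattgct
BC100530: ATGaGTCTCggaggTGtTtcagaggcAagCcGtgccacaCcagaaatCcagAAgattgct
Stfa2: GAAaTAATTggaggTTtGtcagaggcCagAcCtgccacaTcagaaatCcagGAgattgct
Stfa2l1: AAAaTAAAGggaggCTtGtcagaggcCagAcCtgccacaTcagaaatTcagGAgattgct
Stfa3: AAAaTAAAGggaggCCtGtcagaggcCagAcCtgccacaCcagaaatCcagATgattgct
Within this stretch Stfa1 differs from BC100530 at 2 bases and Stfa2 from Stfa2l1 at 5. Over the whole coding sequence Stfa1 and BC100530 were 97.96% identical, Stfa2 and Stfa2l1 96.5%, and Stfa1 and Stfa2l1 76.9%. Of the 31-base words of a gene's transcripts, 56.2% in Stfa1, 66.7% in Stfa2, 58.4% in Stfa2l1 and 100% in Stfa3 were in no other gene, so the level of Stfa3 depends least on how reads were divided among copies.

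The stefins reached very high levels in 2 of the 6 libraries. Stfa1 was at 363, 15805 and 11821 TPM in G643W libraries 1 to 3, against 367, 97.8 and 1233 TPM in WT libraries 1 to 3. Stfa3 was at 25.7, 7865 and 5115 TPM in the G643W libraries, against 186, 30.9 and 652 TPM in the WT libraries. In both genes G643W libraries 2 and 3 stood far above the rest, while G643W library 1 lay within the WT range for Stfa1 and below all WT libraries for Stfa3.

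Stfa2l1 and Stfa2 also stood far higher in G643W libraries 2 and 3 than in the rest. Stfa2l1 was at 90.9, 8146 and 5720 TPM in the G643W libraries, against 160, 27.4 and 362 TPM in the WT libraries. Stfa2 was at 25.4, 5930 and 3993 TPM in the G643W libraries, against 123, 16.7 and 309 TPM in the WT libraries. For both genes G643W library 1 lay within the WT range, above WT library 2 and below WT library 1. Stfa1 held rank 246, 7 and 7 among protein-coding genes by TPM in the G643W libraries, against rank 232, 725 and 68 in the WT libraries.

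The stefin differences between the genotypes were the largest in size among the members and had the widest intervals. Log2 fold changes were 4.10 ± 1.45 for Stfa1 (SE, edgeR adjusted p = 0.493), 4.49 ± 1.76 for Stfa2 (0.503), 4.68 ± 1.58 for Stfa2l1 (0.493) and 3.92 ± 1.78 for Stfa3 (0.531), none of them called. DESeq2 called Stfa1 (adjusted p = 0.0227), Stfa2 (0.0345) and Stfa2l1 (0.00858) and not Stfa3 (0.102). Within G643W the highest library exceeded the lowest by 43.5 times for Stfa1 and by 306 times for Stfa3, and within WT by 12.6 and 21.1 times. Without WT library 3 the log2 fold changes lay between 5.42 for Stfa3 and 5.73 for Stfa2l1, and without G643W library 2 between 3.06 for Stfa3 and 3.90 for Stfa2l1, none called (edgeR).

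**Figure D2:**
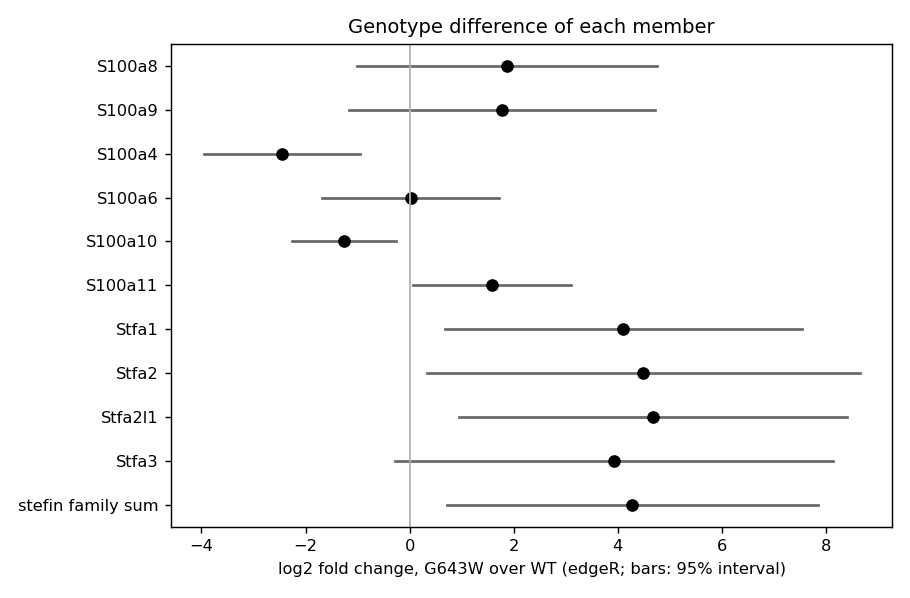
Log2 fold change of G643W over WT for each member and for the 12 stefin genes summed, from edgeR, with bars for the 95% interval. S100a4 and S100a10 lie below 0, and the stefins lie between 3.92 and 4.68 with intervals several units wide.

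The sum over the 12 stefin genes does not depend on how reads were divided within the cluster, and like the stefin members it was not called by edgeR. The family took 0.0727, 3.48 and 2.36% of all reads in G643W libraries 1 to 3, against 0.0806, 0.0181 and 0.237% in WT libraries 1 to 3. Summed into 1 row, it had a log2 fold change of 4.28 ± 1.51 (SE, edgeR unadjusted p = 0.0252, edgeR adjusted p = 0.494, 95% interval 0.71 to 7.85). G643W library 1 lay below WT libraries 1 and 3.

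Copies outside the members carried about as much of the family's level as the members did. The 4 members made up 40.5, 46.2 and 47.7% of the family's TPM in the G643W libraries, against 46.3, 52.0 and 55.5% in the WT libraries. BC100530 was at 525, 15722 and 10343 TPM in G643W, against 280 (WT library 1), 63.2 (WT library 2) and 1312 TPM (WT library 3). Gm5483, which RefSeq names Cstdc4, was at 185, 16968 and 12251 TPM in G643W, against 331, 64.2 and 424 TPM in WT. In both genes G643W libraries 2 and 3 stood far above the rest, as in the members, and G643W library 1 lay above WT libraries 1 and 2 in BC100530 and above WT library 2 in Gm5483.

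**Figure D3:**
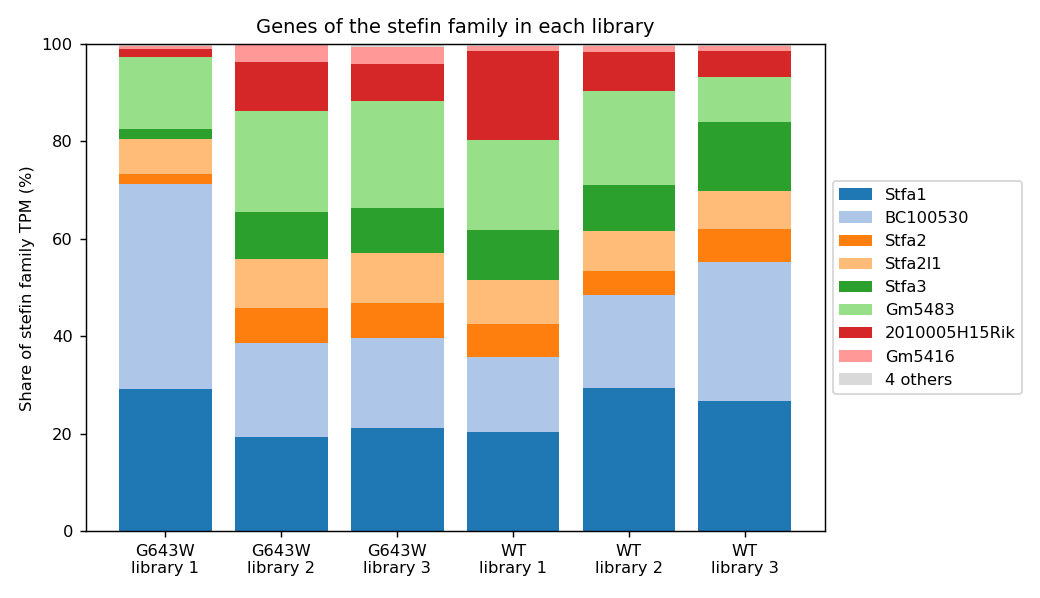
Share of each gene in the summed TPM of the 12 stefin genes, in percent, for G643W libraries 1 to 3 (left) and WT libraries 1 to 3 (right). In G643W library 1 BC100530 and Stfa1 together make up most of the family, with shares of 42.1 and 29.1%, while Stfa2 and Stfa3 have 2.04 and 2.06%.

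Upstream sequences of the stefin members are shown because the genes share both their pattern over libraries and a stretch before the start. Over the 250 bases before the RefSeq start of the 4 genes, the longest run of bases common to all was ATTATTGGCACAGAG, of 15 bases. It was found by comparing these windows with each other. The run began 242 bases before the RefSeq start of Stfa1, 244 before that of Stfa2, 247 before that of Stfa2l1 and 245 before that of Stfa3. For Stfa1 and Stfa2 the RefSeq start lies inside the gene span given above. These spans begin at chr16:36276951 for Stfa1 and, on the minus strand, at chr16:36408457 for Stfa2. Part of the Stfa1 bases shown, though not the run, thus lies within its span. The first 100 bases of each RefSeq window (GRCm38.p6) are given with that run in capitals, for Stfa1 (chr16:36276898-36276997, plus strand), Stfa2 (chr16:36408514-36408613, minus strand), Stfa2l1 (chr16:36156561-36156660, plus strand) and Stfa3 (chr16:36455543-36455642, minus strand).
Stfa1: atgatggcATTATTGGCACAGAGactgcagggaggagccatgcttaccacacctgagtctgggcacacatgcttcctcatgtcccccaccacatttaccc
Stfa2: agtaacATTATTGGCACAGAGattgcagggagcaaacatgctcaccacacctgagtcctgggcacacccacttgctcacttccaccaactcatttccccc
Stfa2l1: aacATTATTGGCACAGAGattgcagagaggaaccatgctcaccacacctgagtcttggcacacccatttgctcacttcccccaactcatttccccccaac
Stfa3: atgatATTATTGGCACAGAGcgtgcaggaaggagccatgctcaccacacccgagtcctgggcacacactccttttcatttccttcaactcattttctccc
On either strand the run was in 5 of 32841 windows (0.0152%), those of the 4 members and of Cstdc5. Since the run was picked from the windows of the 4 members, those 4 hits were fixed in advance. Its relation to the pattern over libraries was not tested. The whole windows were between 79.1% (Stfa1 and Stfa2) and 92.9% identical (Stfa2 and Stfa2l1) over their aligned bases.

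Calprotectin and the stefins did not keep a fixed ratio. The family's TPM was 9.49, 78.7 and 74.9% of the summed TPM of S100a8 and S100a9 in G643W libraries 1 to 3, against 117, 3.66 and 10.2% in WT libraries 1 to 3. WT library 1 had the lowest calprotectin level of the 6 and more stefin than WT library 2. G643W library 3 held 74498 TPM of S100a8 and S100a9 and 55816 TPM of stefins, against 45031 TPM of S100a8 and S100a9 and 4603 TPM of stefins in WT library 3.

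Over the 6 libraries the members fell into patterns that can be described by Pearson correlations of log2 CPM, which share the libraries and their scaling and carry no test. S100a8 and S100a9 were at r = 0.999, and the stefins were between 0.957 and 0.996 with each other. S100a8 had an r between 0.701 and 0.789 with the stefins, and S100a11 between 0.869 and 0.948. S100a4 and S100a10 were at 0.968 with each other. With calprotectin, S100a11 and the stefins, r was between -0.818 and -0.533 for S100a4 and between -0.806 and -0.472 for S100a10. S100a6 was at 0.224 with S100a8 and at 0.187 with S100a4.

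**Figure D4:**
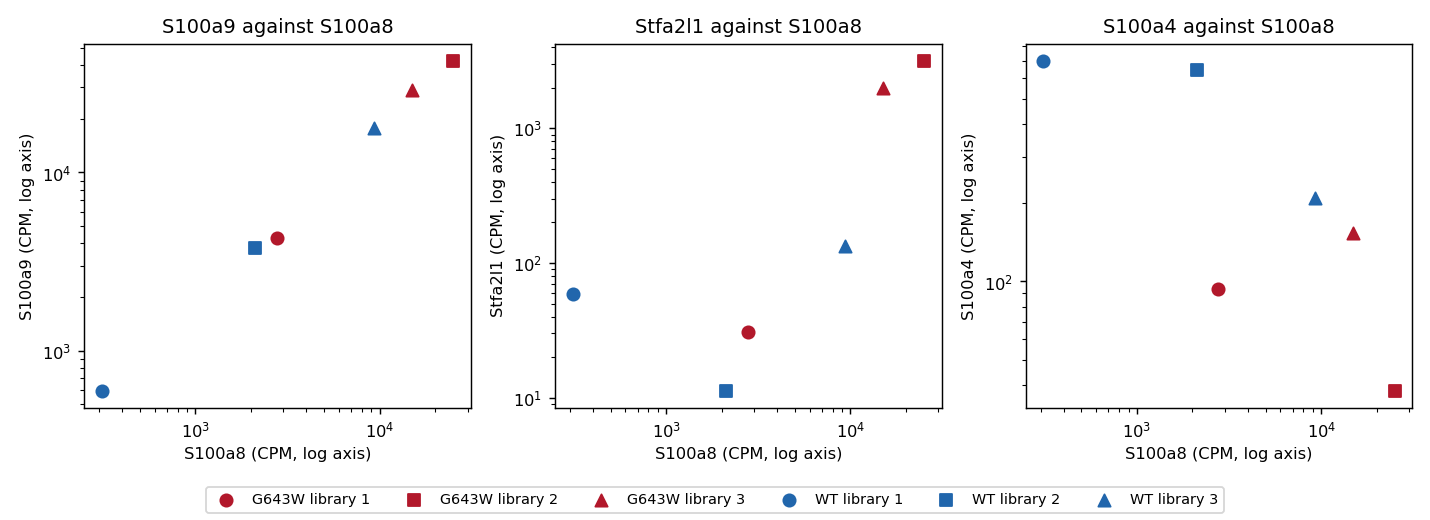
S100a9, Stfa2l1 and S100a4 against S100a8 in CPM, on log axes, with 1 point for each library. S100a9 follows S100a8 through all 6 libraries, WT library 1 has the lowest S100a8 but not the lowest Stfa2l1, and S100a4 is lowest in G643W library 2, where S100a8 is highest.

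The protein-coding genes outside the members with the pattern most like that of S100a8, by Pearson r of log2 CPM over the 6 libraries among 14099 genes, were Cdk5r1, Adtrp, 4930438A08Rik, E330009J07Rik and Smg8, with r from 0.995 to 0.997. Adtrp was at 1.01, 20.9 and 10.2 CPM in the G643W libraries, against 0.0657, 0.651 and 4.65 CPM in the WT libraries. Those most like Stfa2l1 were Dnm2, Akna, Gm5416, Gm5483 and Cmip, with r from 0.993 to 0.999, of which Gm5416 and Gm5483 are stefin genes of the same cluster. The likeness is in the shape of the pattern and not in its size, and is a description over 6 libraries. Dnm2 ranged only from 172 to 258 CPM over the libraries, and Smg8 from 16.4 to 32.3 CPM.

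Genes of cysteine cathepsins, the proteases that stefins block, and of legumain, a cysteine protease of another family, had negative differences, none of them called. All 11 had a negative log2 fold change, with a median of -0.69, against -0.01 over all genes tested. By CPM the 3 G643W values lay below the 3 WT values in 3 of the 11, Ctsf, Ctsl and Ctsw, where 8.89% of all genes tested had that order. The TPM of Ctsl overlapped, and Ctsw was near the floor, at no more than 0.340 TPM in any library. Ctsf, the gene of that list with the lowest p, was at 0.0378, 0.0377 and 0.00680 TPM in G643W, against 2.07, 2.72 and 0.153 TPM in WT (log2 fold change -5.99 ± 1.26, SE, edgeR adjusted p = 0.328). Ctss, a cathepsin of antigen-presenting cells, was at 83.2, 35.7 and 113 TPM in G643W, against 450 (WT library 1), 200.3 (WT library 2) and 104 TPM (WT library 3), with overlap. Of 10 other cystatins 4 passed the filter and none was called (median 0.14). Cst3, cystatin C, had the lowest p, at 925, 564 and 730.1 TPM in G643W, against 2361, 938 and 522 TPM in WT, with overlap.

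The summed level of granulocyte markers was highest in the library with the most calprotectin and stefin, G643W library 2, though not that of each marker. The 22 secondary granule and late neutrophil genes had a median log2 fold change of 1.33, 21 of them positive and none called, and in 1, Il1r2, the 3 G643W values lay above the 3 WT values, where 7.05% of all genes tested had that order. Il1r2, a decoy receptor of interleukin 1, was at 42.1, 53.0 and 57.8 TPM in G643W, against 13.4, 13.9 and 30.2 TPM in WT (log2 fold change 1.31 ± 0.33, SE, edgeR adjusted p = 0.414). The summed TPM of the 22 genes was 26177, 108929 and 61796 in the G643W libraries, against 43292, 32701 and 48013 in the WT libraries. Chil3 alone made up 41737 of the 43292 TPM in WT library 1. Ltf, the lactoferrin of secondary granules, was at 1046, 40602 and 17937 TPM in G643W, against 450, 2269 and 20509 TPM in WT. Ly6g, part of the Gr1 antigen of the gate, was at 10.8, 697 and 245 TPM in G643W, against 6.14, 26.8 and 294 TPM in WT. WT library 3 had more Ltf and Ly6g than G643W library 3, but most of the 22 genes were higher in G643W library 3. Camp was at 5483 TPM in G643W library 3 against 3682 TPM in WT library 3, and Mmp8 at 341 against 125 TPM. All 4 stefins were also higher in G643W library 3 than in WT library 3. The part of these genes in the results on calprotectin and stefins was not tested.

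Genes of earlier and of other cells were counted beside the members too. The 9 promyelocyte genes tested had a median log2 fold change of 0.39, 8 of them positive and none called. Mpo, the peroxidase of primary granules, was at 2181, 173 and 779 TPM in the G643W libraries, against 244, 1034 and 1609 TPM in the WT libraries, so the lowest Mpo was in G643W library 2, where calprotectin and stefins were highest. Of 12 monocyte genes 11 had a negative log2 fold change, with a median of -1.40 (against -0.01 over all genes tested) and none called. By CPM 5 of the 12 lay without overlap below WT, where 8.89% of all genes tested did. Of these 5, Ms4a6c and Ms4a4c overlapped by TPM. Srgn, the proteoglycan core of granules, had the lowest promyelocyte p, at 588, 252 and 698 TPM in G643W, against 225, 293 and 442 TPM in WT (edgeR adjusted p = 0.617). F13a1, a coagulation factor subunit made by monocytes, had the lowest p of these at 43.1, 10.8 and 36.1 TPM in G643W, against 144, 140.4 and 61.1 TPM in WT (log2 fold change -2.07 ± 0.56, SE, edgeR adjusted p = 0.454). The summed monocyte TPM ranged from 2702 to 3631 in G643W and from 2324 to 4153 in WT, most of it Ly6c2, and its part in the S100a4 and S100a10 values was not tested.

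Markers of other cell types were summed in the same way. The summed TPM ranged over the libraries from 104 to 193 in G643W and from 114 to 223 in WT for 10 macrophage genes, from 75.2 to 161 and from 117 to 190 for 10 B cell genes, from 3.06 to 14.8 and from 2.96 to 12.98 for 10 T cell genes, and from 18.8 to 51.3 and from 1.87 to 12.6 for 10 erythroid genes. None of these genes was called. The lowest p of each list belonged to C1qa, a complement subunit (log2 fold change -3.16 ± 1.29, SE, edgeR adjusted p = 0.511), Cd22, a B cell lectin (-1.73 ± 0.48, 0.454), Cd28, a T cell costimulator (-1.03 ± 0.35, 0.493), and Hba-a1, a globin (1.07 ± 0.48, 0.527). The median log2 fold change was -0.21 over 9 macrophage, -0.28 over 8 B cell, 0.15 over 9 T cell and 1.08 over 7 erythroid genes tested. All 7 erythroid values were positive, and by CPM 4 of the 7 (Hba-a1, Hba-a2, Hbb-bs and Alas2) lay without overlap above WT, where 7.05% of all genes tested did. Alas2 was near the floor, at no more than 0.230 TPM in any library, and its TPM overlapped. Hba-a2 and Hbb-bs were at 0 TPM in WT library 3. By CPM 1 B cell and 1 T cell gene lay above WT, 1 of each lay below, and no macrophage gene did either. Of these, Cd4 (above) and Cd22 (below) overlapped by TPM. The part of these cells in the members' values was not tested. Ighm, an immunoglobulin heavy chain, made up most of the B cell sum, at 63.7, 65.3 and 148 TPM in G643W, against 173, 102 and 99.4 TPM in WT. Adgre1, the F4/80 antigen, made up most of the macrophage sum in 5 of the 6 libraries, at 73.9, 82.3 and 150 TPM in G643W, against 101, 80.9 and 89.1 TPM in WT. Neither kept the groups apart. Of the T cell genes Cd4 reached 8.67 TPM and Cd3d 3.09 TPM, while Cd3e, a subunit of the T cell receptor complex, was at 0.0521, 0.0348 and 0.219 TPM in the G643W libraries, against 0.197, 0.00294 and 0.0168 TPM in the WT libraries.

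Transcription factors known to act on calprotectin genes or on granulocyte and monocyte fate had no common direction. Of 10 such genes 5 had a positive and 5 a negative log2 fold change, with a median of -0.11 and none called. Cebpe, the C/EBP factor of late granulocytes, was at 34.9, 174 and 82.8 TPM in the G643W libraries, against 14.8, 26.0 and 68.4 TPM in the WT libraries, with overlap. Its order of libraries was that of S100a8 and S100a9, and also that of the neutrophil genes Camp, Ngp, Pglyrp1 and Anxa3. Irf8, which favours monocytes over granulocytes, was at 24.1, 3.97 and 8.91 TPM in G643W, against 39.6, 40.2 and 36.3 TPM in WT, with no overlap (log2 fold change -1.81 ± 0.51, SE, edgeR adjusted p = 0.454). Runx1, a factor of blood stem and progenitor cells, had the lowest p of the list, at 13.03, 8.76 and 8.64 TPM in G643W, against 18.1, 12.6 and 18.6 TPM in WT. Its TPM overlapped and its CPM did not (log2 fold change -0.76 ± 0.21, SE, edgeR adjusted p = 0.454).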

How the data were processed

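RNA sequencing libraries (TruSeq, per the labels' protocols) from sorted blasts were analysed, 3 for each genotype. The authors deposited Salmon tables of estimated counts and TPM per transcript, and the submitters' processing notes name Salmon 0.12.0, bcl2fastq, mm10 and GRCm38.p6. Salmon's index, options and strand setting were not found in those notes or the labels, and reads of antisense partners may therefore be included. The tables list 136288 transcripts each, of which 136176 matched GENCODE M21, and the other 112 took no more than 0.0365% of the reads in any library. Estimated counts and TPM were summed to 53458 genes. After rounding and TMM scaling, genes kept by filterByExpr at a minimum count of 10 entered edgeR 4.0.16's quasi-likelihood test with genotype as the only term (R 4.3.3), with Benjamini-Hochberg adjustment and a threshold of 0.05, and CPM use the TMM-scaled library sizes. SEs are the log2 fold change divided by the root of F, with 95% intervals. The biological coefficient of variation was 52.8%, and 3 libraries a group limit the precision more than depth does. The fit was tested on simulated data. DESeq2 1.42.0, limma 3.58.1 on log2(TPM + 1) and other scalings, filters and library sets were alternatives. Copies were found with BLAST+ 2.17.0 (at least 80% identity over 50% of a transcript) and aligned with MAFFT 7.526. Promoter windows came from RefSeq (GRCm38.p6), with entries for 9 of the 10 members. Gene spans came from GENCODE M21, and their starts can differ from those of RefSeq.

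The members and all gene lists were chosen with earlier results of these data known. Named outside the members were the gene with the lowest p of each list, partners and markers given as examples, stefin copies, and the 5 protein-coding genes most like S100a8 and Stfa2l1. Irf8, Ctss, Tlr4, Anxa1, Anxa2, Chil3 and the other examples were picked after their values were seen.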

Additional observations from a re-analysis of the deposited data

How the results depend on the processing

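Over 15 alternatives the log2 fold changes of S100a8, S100a9, S100a4, S100a10, S100a11 and the 4 stefins kept their direction, from 1.18 to 3.67 for S100a8, from -2.98 to -2.07 for S100a4, from -1.52 to -0.99 for S100a10, from 1.14 to 2.36 for S100a11 and from 2.70 (Stfa3) to 5.73 (Stfa2l1) for the stefins. S100a6 turned to -0.11 without a scaling factor, to -0.44 with a replicate block, to -0.47 with limma on log2(TPM + 1) and also to -0.47 on log2(TPM + 0.1), and from -0.38 to 0.61 when 1 library was left out, while its main value was 0.02, and the cause was not tested. DESeq2 called 4 members (S100a4, Stfa1, Stfa2 and Stfa2l1) and the stefin family sum (4.32, DESeq2 adjusted p = 0.0178), and no other alternative called any member. Genes called over the whole table numbered 25 in edgeR, 27 with RLE size factors, 16 without a scaling factor, 104 without the filter on low counts, 427 with DESeq2, 10 on length-scaled counts, 20 with limma on log2(TPM + 1), 43 on log2(TPM + 0.1), 2 on protein-coding genes and from 0 to 16 with 1 library left out. No gene was called without WT library 2, where 1277 reached an unadjusted edgeR p under 0.05. The replicate numbers did not pair the libraries (correlations of deviations of 0.11, -0.16 and 0.18), and with the replicate block 0 genes were called, 1772 reached an unadjusted p under 0.05 and the stefin family sum was 3.48 (edgeR adjusted p = 0.614). Where 1 library was left out, the group of 2 was assumed to vary like the group of 3. With at least 61167075 reads in a library, the spread between libraries and not the depth set the width of the intervals, which for the stefin sum ran from 0.71 to 7.85.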
